A study of Mus musculus with 20 samples.

Results

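Messenger RNA of 38 genes for protein folding and stress in the endoplasmic reticulum (ER) was measured in colon tissue from 20 mice. The 38 genes were chosen by name for what they are known to do in the ER, with earlier results of these data known. They are 38 of the 32945 genes with a value. A gene's value was the FPKM of its Ensembl transcripts, which is fragments scaled to transcript length and library depth, added up in each mouse. The study asked whether Pien Tze Huang (PZH), a compound remedy from Chinese medicine, acts on colitis-associated colorectal cancer in male C57BL/6 mice. Mice of the AOM/DSS group, labelled Model, received an intraperitoneal dose of 12.5 mg/kg azoxymethane (AOM), a colon carcinogen, and 4 cycles of 2% dextran sodium sulfate (DSS), which injures the colon epithelium. A cycle was 5 days of DSS in the drinking water and 2 weeks of plain water. Mice of the PZH + AOM/DSS group, labelled Model + PZH, had the same and PZH by gavage at 250 mg/kg/d for 91 days. The PZH group had PZH alone, and the Control and AOM/DSS groups had double distilled water by gavage. Each group held 5 mice, with 1 library per mouse and no mouse in more than 1 group. How much of each piece of colon was tumour is not given in the sources used here.

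Secreted and membrane proteins enter the ER through the Sec61 channel, where Hsp70 and Hsp90 chaperones, the lectins calnexin and calreticulin and the disulfide isomerases fold them. Chains that fail to fold are returned to the cytosol and destroyed by ER-associated degradation (ERAD). When unfolded chains build up, the sensors Ire1 (Ern1, and Ern2 in epithelia that make mucus), Perk (Eif2ak3) and Atf6 start the unfolded protein response. Ire1 splices Xbp1 mRNA, Atf6 is cut in the Golgi to release a transcription factor, and Perk slows translation and raises translation of Atf4. Atf4 also answers amino acid shortage, through genes of amino acid synthesis and transport. In the colon the load is heaviest in goblet cells, which secrete mucin, and in plasma cells, which secrete IgA.

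The libraries held 15.3 to 19.4 M fragments, as estimated from the steps between low FPKM values. Genes of colon epithelium were present in every mouse, with a summed level of 1447 to 5366 FPKM over 8 markers, although the extraction text of the labels names another tissue, the abdominal aorta. Control mice 17 and 50 stood apart from the other 3 Control mice. Their summed level of 7 keratins of squamous epithelium was 515 and 371 FPKM, against at most 2.17 FPKM in the others. This keratin sum was 13.4 to 37.5 FPKM in AOM/DSS, 3.36 to 66.0 FPKM in PZH + AOM/DSS and 0.79 to 1.81 FPKM in PZH. Without Control mice 17 and 50, every Control mouse therefore lies below every AOM/DSS mouse in it. The summed level of 8 goblet cell markers was 3972 and 3484 FPKM in Control mice 17 and 50, against 7737 to 8160 FPKM in the other 3. Counts of calls in the comparisons that use Control are therefore also given without these mice, an alternative chosen after the data were seen. PZH + AOM/DSS mouse 35 had the lowest goblet cell sum of its group, 2630 FPKM against 6572 to 8079 FPKM in the other 4 mice.

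In AOM/DSS against Control, 14 of the 38 genes rose and 0 fell, at an adjusted p under 0.05 with limma. Of all 15802 genes tested, 16.4% were called higher and 7.23% lower. Of the 17 chaperones and isomerases of the ER 10 were called, and of the 7 ERAD genes 0 were called; a difference between these groups was not tested. Xbp1 was the only called gene among the 6 sensors and factors, and Asns and Chac1 rose among Atf4 and its targets. The differences were moderate: the median of the 38 genes was 0.39 on the log2(FPKM + 1) scale, against 0.09 over all genes tested. In 32 of the 38 genes (84.2%) the difference was positive, as it was in 60% of all genes. For 9 genes all AOM/DSS values were above all Control values, and for 0 genes all were below. Over all genes these shares were 13% and 5.43%.

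The count of 14 depends on how mice are scaled and on which Control mice are used. With median-of-ratios size factors, 7 of the 38 genes were called higher, namely Asns, Chac1, Dnajc10, Hsp90b1, Hspa5, Pdia4 and Xbp1. This scaling also moved the split of calls over all genes from 2596 higher and 1143 lower to 1892 higher and 1665 lower, and the median of the 38 genes to 0.27. Without Control mice 17 and 50, 4 genes were called higher, Asns, Chac1, Dnajc10 and Xbp1, and 2 were called lower, Creb3l1 and Pdia5. In that setting 12.2% of all genes were called higher and 5.58% lower, so no excess of calls among the 38 genes is read there. All 14 genes kept a positive difference in both settings.

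**Figure D1:**
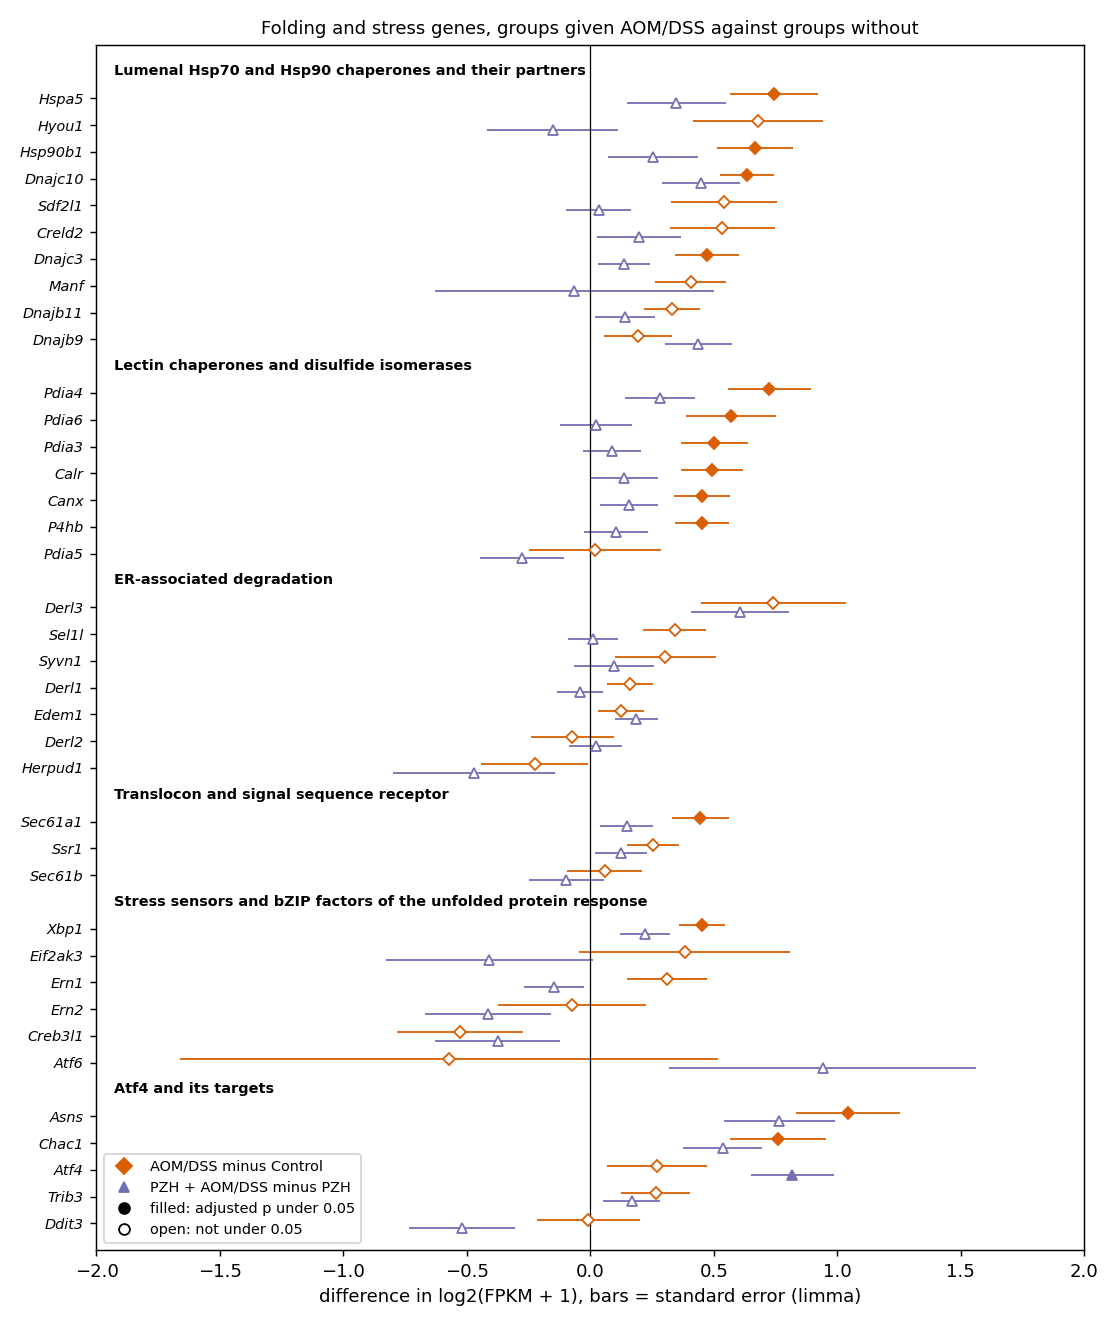
Differences of the 38 genes in log2(FPKM + 1), grouped by role, for AOM/DSS minus Control (diamonds) and for PZH + AOM/DSS minus PZH (triangles), which share no mouse. Bars are standard errors from limma and filled symbols have an adjusted p under 0.05: there are 14 filled diamonds and 1 filled triangle, that of Atf4.

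The ER stress element, a promoter sequence that Atf6 is known to bind together with NF-Y, was looked for in the promoters of the 38 genes, from 250 bases before to 50 bases after the RefSeq start. RefSeq promoters on GRCm38.p6 were at hand for 31 of the 38 genes, and Hyou1, Manf, Derl1, Sec61a1, Ern2, Atf6 and Creb3l1 had none. The element, CCAAT followed by 9 bases and CCACG on either strand, stood in 9 of the 31 genes (29.0%), against 39 of 32851 promoters in all (0.119%). The list was chosen for known roles in ER stress, so this share describes the list and is not a result of these mice. The 32851 promoters are single windows and include those of the listed genes. Among the 14 genes that rose, 6 of the 13 with a promoter held it, namely Hspa5, Hsp90b1, Dnajc3, Calr, Canx and Pdia6. Of the 18 other genes with a promoter 3 held it, namely Creld2, Derl3 and Syvn1. The 10 stretches are shown because they are the sequence that these genes share. The element's fixed letters are in capitals, and each stretch is read 5′ to 3′ on the strand of the element.
Hspa5, chr2:34772020-34772048, + strand: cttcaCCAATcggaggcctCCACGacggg
Hsp90b1, chr10:86705633-86705661, - strand: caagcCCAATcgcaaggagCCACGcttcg
Hsp90b1, chr10:86705528-86705556, + strand: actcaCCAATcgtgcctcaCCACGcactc
Dnajc3, chr14:118937822-118937850, + strand: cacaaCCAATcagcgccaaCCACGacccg
Calr, chr8:84847070-84847098, + strand: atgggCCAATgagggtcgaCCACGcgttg
Canx, chr11:50325795-50325823, - strand: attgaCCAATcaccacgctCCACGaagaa
Pdia6, chr12:17266486-17266514, + strand: agagaCCAATgaaaggcggCCACGgcgtg
Creld2, chr15:88819515-88819543, - strand: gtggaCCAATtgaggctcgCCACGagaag
Derl3, chr10:75893237-75893265, - strand: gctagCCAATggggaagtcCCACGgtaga
Syvn1, chr19:6046527-6046555, + strand: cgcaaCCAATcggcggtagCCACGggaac
All 10 lay before the start, the nearest from 44 to 26 bases before it (Syvn1) and the farthest from 212 to 194 bases before it (Hsp90b1). In Hspa5 the element stood from 65 to 47 bases before the start. The 9 genes with the element had a median AOM/DSS against Control difference of 0.53 on the log2 scale, ranging from 0.30 to 0.74. The 22 genes whose promoter lacked it had a median of 0.32, ranging from -0.23 to 1.04, a wider range that takes in the first. Differences between genes with and without the element, in calls or in median, were not tested. These are matches of letters and not measured binding sites.

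**Figure D2:**
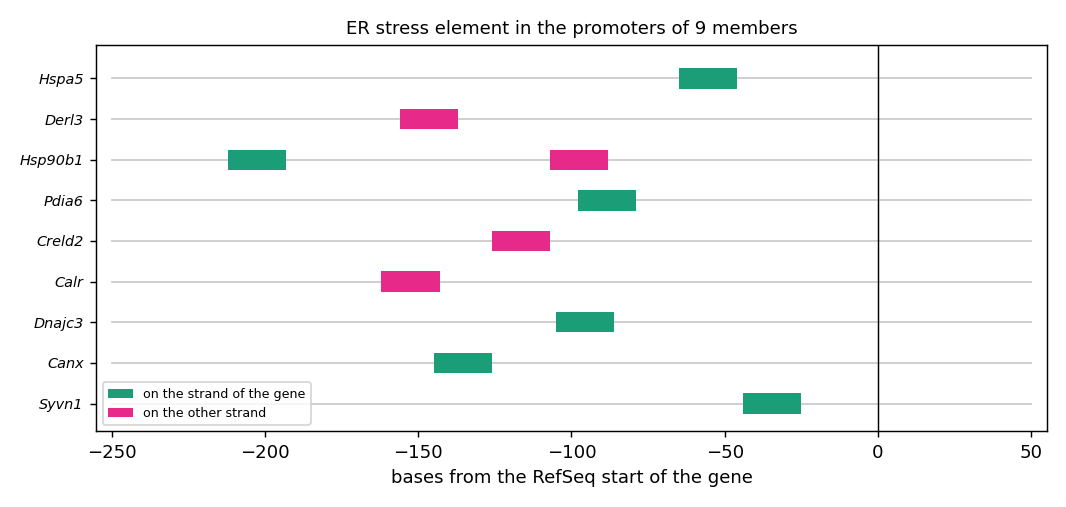
Position of the ER stress element in the promoters of 9 genes, in bases from the RefSeq start of each gene (0), over the window from 250 bases before to 50 after it. Boxes on the strand of the gene and on the other strand differ in colour, and Hsp90b1 holds 2 of the 10 boxes.

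Among the 10 lumenal Hsp70 and Hsp90 chaperones and their partners, 4 rose in AOM/DSS against Control (Hspa5, Hsp90b1, Dnajc10 and Dnajc3) and all 10 differences were positive, with a median of 0.54 on the log2 scale. Hspa5 encodes BiP, the Hsp70 of the ER lumen and the chaperone that holds the stress sensors inactive. Its levels were 122, 147, 175, 176 and 190.4 FPKM in the Control mice and 197, 238, 279, 285 and 376 FPKM in the AOM/DSS mice. The groups did not overlap, but the highest Control mouse and the lowest AOM/DSS mouse lay close together. The difference of Hspa5, whose promoter element is shown above, was 0.74 ± 0.18 (SE) on the log2 scale (adjusted p = 0.0127). Hsp90b1 encodes Grp94, the Hsp90 of the ER, which folds receptors and integrins. It measured 127, 146, 148, 165 and 187 FPKM in Control and 188, 218, 244, 275 and 316 FPKM in AOM/DSS, again with no overlap and with neighbouring extremes. It rose by 0.67 ± 0.15 on the log2 scale (adjusted p = 0.0101).

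Dnajc10 encodes ERdj5, a J protein that reduces disulfide bonds before degradation, and it had the lowest adjusted p of the 38 genes. Its Control values were 31.9, 32.4, 35.1, 35.4 and 35.5 FPKM, within a narrow range, and its AOM/DSS values were 42.2, 49.5, 57.5, 59.1 and 61.1 FPKM. It rose by 0.63 ± 0.11 on the log2 scale (adjusted p = 0.00245). Dnajc3 encodes p58IPK, a co-chaperone of BiP and an inhibitor of Perk. It was at 29.0 ± 3.38 FPKM in Control and 40.8 ± 6.81 FPKM in AOM/DSS (SD, n = 5), a rise of 0.47 ± 0.13 on the log2 scale (adjusted p = 0.023), with 1 AOM/DSS mouse inside the Control range.

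The other 6 partners did not pass the test. Hyou1 (Grp170, the exchange factor of BiP) differed by 0.68 ± 0.26 on the log2 scale (adjusted p = 0.0862), and AOM/DSS mouse 44, at 26.99 FPKM, lay far above the other 4 AOM/DSS mice at 9.60 to 14.1 FPKM. Sdf2l1, a cofactor of BiP and ERdj3, differed by 0.54 and Creld2, a stress-induced isomerase of the ER, by 0.53 on the log2 scale (adjusted p = 0.0934 and 0.0954). Manf, a secreted stress protein that binds BiP, differed by 0.41 (adjusted p = 0.0637), Dnajb11 (ERdj3) by 0.33 (adjusted p = 0.058) and Dnajb9 (ERdj4), which represses Ire1, by 0.19 on the log2 scale (adjusted p = 0.354). Mean levels of these 6 genes ranged from 8.19 FPKM for Hyou1 to 59.1 FPKM for Manf in Control.

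Of the 7 lectin chaperones and disulfide isomerases, 6 rose and Pdia5 did not pass the test. The lectins hold glycoproteins while they fold, and the isomerases make and reshuffle disulfide bonds, with which mucins and antibodies are dense. Calr (calreticulin) measured 252, 253, 295, 301 and 321 FPKM in Control and 329.7, 350.4, 409, 449.7 and 473 FPKM in AOM/DSS, with no overlap. It rose by 0.49 ± 0.13 on the log2 scale (adjusted p = 0.0176). P4hb, the classical protein disulfide isomerase, was at 201 to 239 FPKM in Control and 251 to 364 FPKM in AOM/DSS, also with no overlap, and rose by 0.45 ± 0.11 on the log2 scale (adjusted p = 0.0132). Pdia4 (ERp72) showed the largest rise of the 7: it measured 44.2, 46.6, 51.6, 61.7 and 63.2 FPKM in Control and 65.4, 85.7, 86.8, 87.1 and 125 FPKM in AOM/DSS, with no overlap. This was a difference of 0.72 ± 0.17 on the log2 scale (adjusted p = 0.0106).

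Canx (calnexin, the membrane-bound lectin) rose from 79.2 ± 9.10 to 109 ± 13.9 FPKM (SD, n = 5), and Pdia3 (ERp57, the isomerase that works with both lectins) rose from 202 ± 28.8 to 287 ± 43.4 FPKM. Their log2 differences were 0.45 ± 0.12 and 0.50 ± 0.14 (adjusted p = 0.0167 and 0.0223), and AOM/DSS mouse 30 lay inside the Control range for both. Pdia6 rose from 85.1 ± 17.7 to 127 ± 26.2 FPKM, by 0.57 ± 0.18 on the log2 scale (adjusted p = 0.0429, the highest among the 14). Pdia5, another isomerase, stood apart from this group. Its Control mice fell into 14.5 and 14.8 FPKM, in mice 17 and 50, and 31.4, 34.6 and 38.6 FPKM in the other 3, while the AOM/DSS mice measured 22.6 to 28.1 FPKM. Its difference was 0.02 ± 0.27 on the log2 scale with all mice (adjusted p = 0.971), and it was called lower without the 2 Control mice (-0.46 on the log2 scale, adjusted p = 0.025).

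**Figure D3:**
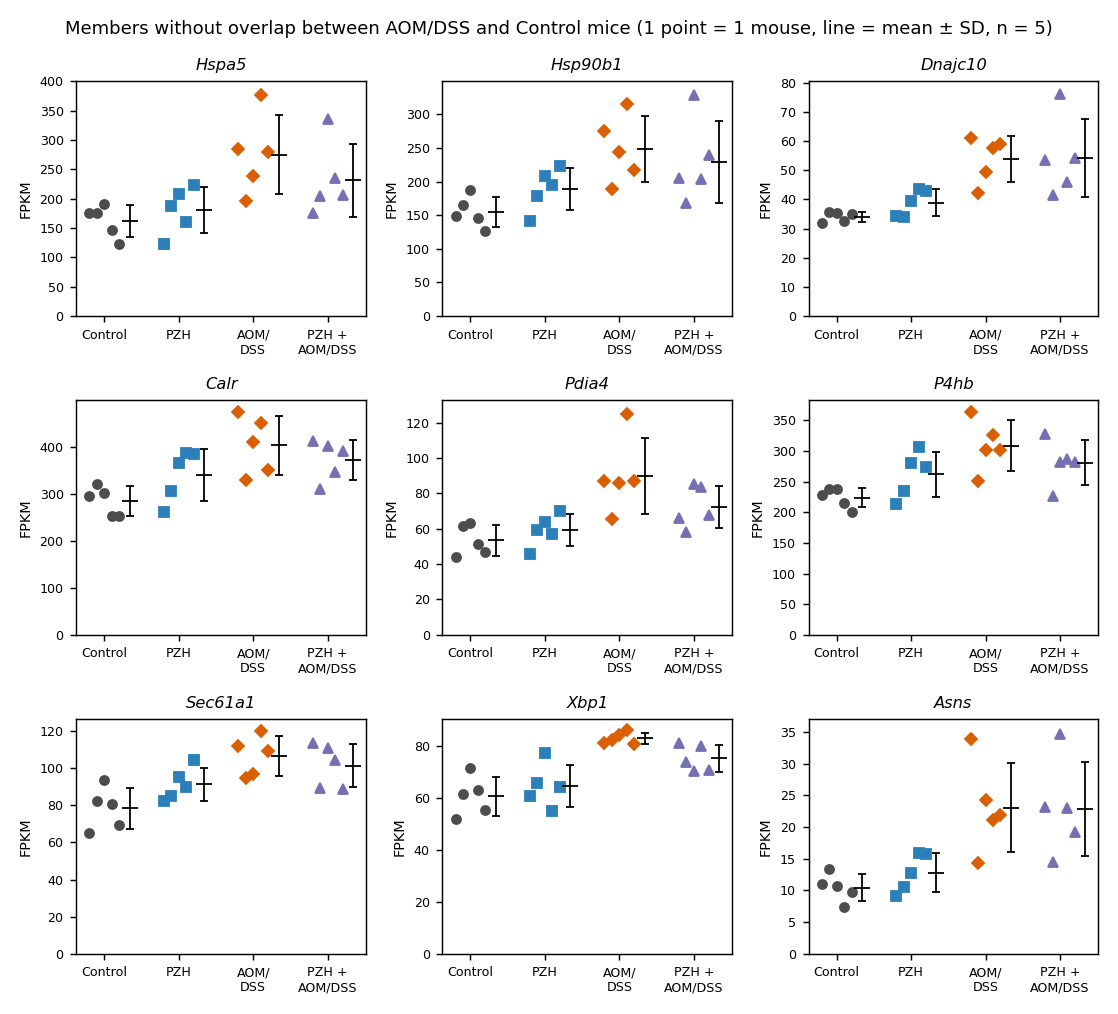
Level in FPKM of each mouse for the 9 genes whose AOM/DSS mice all lay above all Control mice, by group (n = 5), beside the group mean ± SD. The axes start at 0 and each panel has its own scale. In the PZH + AOM/DSS group some mice overlap Control, as for Hspa5, where its lowest mouse is at 175 FPKM.

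None of the 7 ERAD genes passed the test (0 of 7 by limma), and their median difference was 0.16 on the log2 scale. At an unadjusted p under 0.05 by limma, 2 of 7 were higher, Sel1l and Derl3. Over all genes 3826 of 15802 were higher at that level, so no excess is read from these 2. The count of called ERAD genes depends on the setting. Sel1l and Derl3 were called with all 20 mice in one model and Derl2 with the highest transcript of each gene. Sel1l and Syvn1 (Hrd1) form the ubiquitin ligase of the ERAD membrane complex. They measured 23.1 ± 3.56 and 11.1 ± 3.15 FPKM in Control and 29.4 ± 3.38 and 13.9 ± 3.39 FPKM in AOM/DSS (SD, n = 5), log2 differences of 0.34 and 0.30 (adjusted p = 0.0763 and 0.319). The derlins, which move chains out of the ER, differed by 0.16 for Derl1, -0.07 for Derl2 and 0.74 for Derl3 on the log2 scale (adjusted p = 0.249, 0.795 and 0.0918). Derl3 was the derlin with the lowest level, at 0.937 to 3.88 FPKM in Control and 2.68 to 7.71 FPKM in AOM/DSS. Edem1, a lectin that marks glycoproteins for degradation, was at 31.6 ± 3.30 FPKM in Control and 34.5 ± 2.1 FPKM in AOM/DSS, a log2 difference of 0.13 (adjusted p = 0.376). Herpud1 (Herp, a stress-induced scaffold of the complex) had a log2 difference of -0.22 (adjusted p = 0.502). Its values were 15.8 to 20.8 FPKM in 17 of the 20 mice, but 42.4 FPKM in Control mouse 17, 59.2 FPKM in PZH mouse 8 and 39.1 FPKM in PZH mouse 27. The excess in these 3 mice lay in the transcript Herpud1-201.

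Of the channel genes, Sec61a1, the pore of the translocon, rose. It measured 65.4, 69.5, 80.7, 82.3 and 93.8 FPKM in Control and 94.7, 96.8, 109, 112 and 120.2 FPKM in AOM/DSS, with no overlap and with the extremes of the groups less than 1 FPKM apart. Its log2 difference was 0.45 ± 0.12 (adjusted p = 0.0186). Ssr1, a subunit of the translocon-associated protein complex, differed by 0.25 and Sec61b, the small subunit of the channel, by 0.06 on the log2 scale (adjusted p = 0.108 and 0.824).

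Of the sensors and factors, Xbp1, the transcription factor that Ire1 activates, rose with no overlap between the groups. It measured 52.02, 55.5, 61.5, 63.0 and 71.5 FPKM in Control and 80.8, 81.2, 82.5, 84.3 and 86.2 FPKM in AOM/DSS, and the AOM/DSS mice lay within a narrow range. The difference was 0.45 ± 0.09 on the log2 scale (adjusted p = 0.00642), and it also passed the test without Control mice 17 and 50 (0.34, adjusted p = 0.0319). The separation lay in the transcript Xbp1-201, at 32.8 to 40.5 FPKM in Control and 54.7 to 66.0 FPKM in AOM/DSS. The other 3 annotated Xbp1 transcripts overlapped between these groups. No pair among the 4 annotated transcripts differs by the 26 bases that Ire1 removes, so splicing by Ire1 cannot be read from these values.

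The sensors themselves did not pass the test. Ern1 measured 7.56, 7.68, 9.46, 11.6 and 13.9 FPKM in Control and 11.1, 11.7, 12.5, 12.9 and 13.8 FPKM in AOM/DSS, a log2 difference of 0.31 ± 0.16 (adjusted p = 0.199). Ern2, the Ire1 of mucus-making epithelium, measured 4.49, 8.42, 10.3, 11.0 and 11.4 FPKM in Control and 3.60, 9.28, 9.99, 10.18 and 10.7 FPKM in AOM/DSS, a log2 difference of -0.07 ± 0.30 (adjusted p = 0.888). Each group held 1 mouse well below the others, Control mouse 17 and AOM/DSS mouse 44, with goblet cell sums of 3972 and 3993 FPKM. Control mouse 50, with a sum of 3484 FPKM, had an Ern2 level of 8.42 FPKM, and PZH + AOM/DSS mouse 35, with the lowest sum, had 7.05 FPKM. Eif2ak3 (Perk) spread widely within groups, at 2.82 to 12.9 FPKM in Control and 3.69 to 15.9 FPKM in AOM/DSS, and differed by 0.38 ± 0.43 on the log2 scale (adjusted p = 0.571).

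Atf6 was listed at 0.016 to 0.026 FPKM in 6 mice and at 8.46 to 14.4 FPKM in the other 14. The 6 were Control mice 17 and 50, PZH mouse 53 and AOM/DSS mice 23, 33 and 44. In these mice the transcript Atf6-201 is listed at 0, which can be a failed estimate, and the other transcript gives the whole value. Epcam, a gene of all colon epithelium, is likewise listed at 0 in every Control mouse and reaches 865 FPKM in a PZH + AOM/DSS mouse. Where it was estimated, Atf6 measured 8.46, 11.2 and 11.6 FPKM in Control, 9.30, 11.1, 11.7 and 12.1 FPKM in PZH, 12.8 and 13.2 FPKM in AOM/DSS, and 11.9, 12.8, 13.1, 13.1 and 14.4 FPKM in PZH + AOM/DSS. No direction is drawn for Atf6 in any comparison, since the low values decide it.

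Creb3l1 (Oasis) is a membrane-bound bZIP factor like Atf6 that is used by collagen-making and mucus-making cells, and it had one of the few negative differences. It measured 58.7, 59.5, 85.7, 124 and 147 FPKM in Control and 47.5, 58.1, 60.6, 71.4 and 71.8 FPKM in AOM/DSS, a log2 difference of -0.53 ± 0.26 (adjusted p = 0.166). The 2 lowest Control values were those of mice 17 and 50, and without them Creb3l1 fell by 0.91 on the log2 scale (adjusted p = 0.016). In the other 3 groups the mouse with the lowest goblet cell sum also had the lowest Creb3l1 level. These were PZH mouse 8, at 77.8 FPKM against 107 to 118 FPKM in the other 4 PZH mice, AOM/DSS mouse 44, at 47.5 FPKM, and PZH + AOM/DSS mouse 35, at 39.6 FPKM against 80.7 to 105 FPKM. The part of goblet cell number in these values was not tested, and in bulk tissue fewer cells of a type and less RNA per cell cannot be told apart.

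**Figure D4:**
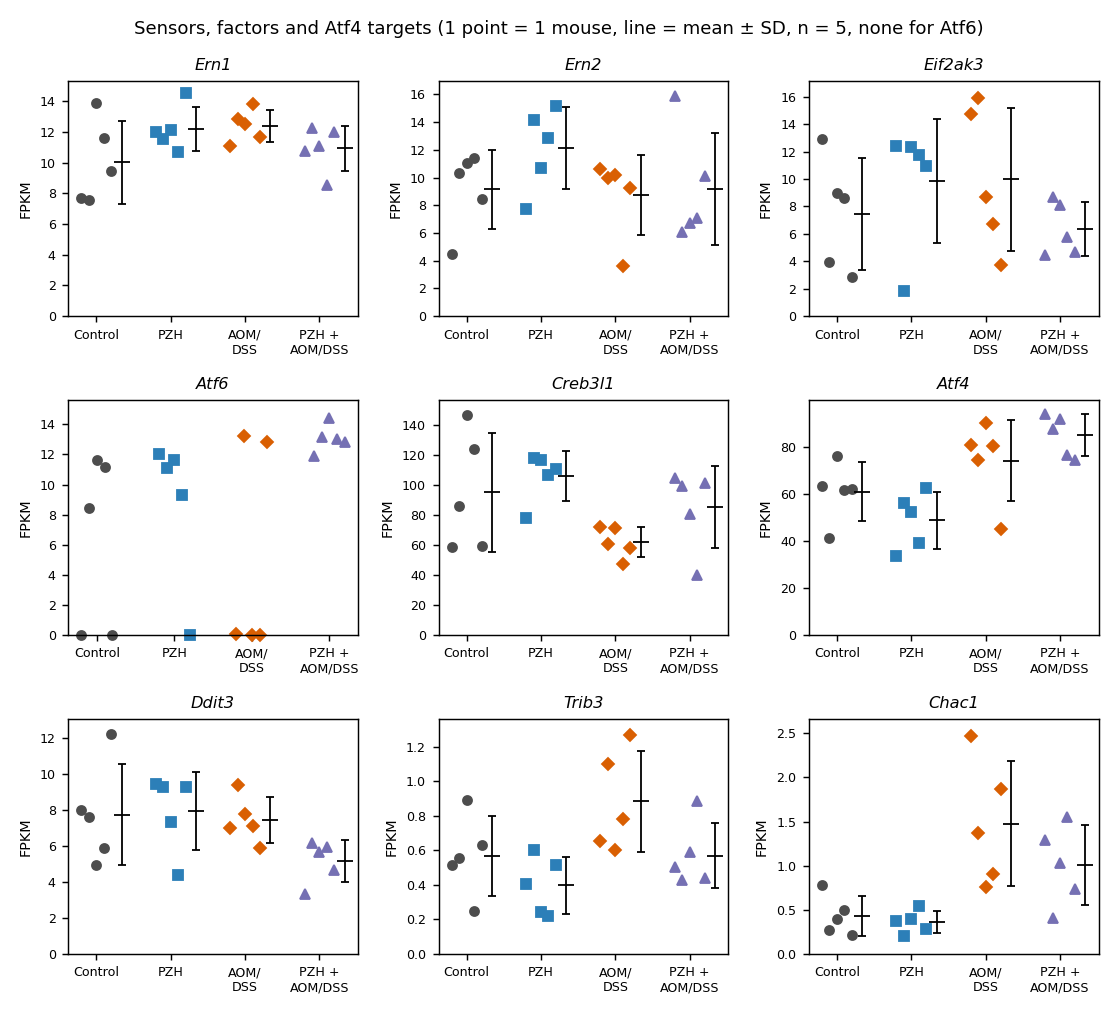
Level in FPKM of each mouse for the sensors, Atf6 and Creb3l1 and for Atf4 and 3 of its targets, by group (n = 5), beside the group mean ± SD except for Atf6. Axes start at 0 and differ between panels. Atf6 lies near 0 in 6 mice and between 8.46 and 14.4 FPKM in the other 14.

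Of Atf4 and its targets, Asns and Chac1 rose in AOM/DSS against Control, while Atf4, Trib3 and Ddit3 did not pass the test. Asns makes asparagine and is a standard target of Atf4. It measured 7.39, 9.82, 10.6, 11.0 and 13.4 FPKM in Control and 14.3, 21.2, 22.0, 24.2 and 33.8 FPKM in AOM/DSS, with no overlap. Its rise of 1.04 ± 0.21 on the log2 scale (adjusted p = 0.00549) was the largest of the 38 genes on this scale, while Chac1 had the larger one with a pseudocount of 0.1. Chac1, which degrades glutathione, was low throughout, at 0.215, 0.267, 0.393, 0.494 and 0.784 FPKM in Control and 0.763, 0.906, 1.37, 1.87 and 2.47 FPKM in AOM/DSS. The lowest AOM/DSS mouse lay just below the highest Control mouse, and the rise was 0.76 ± 0.19 on the log2 scale (adjusted p = 0.0167), a scale that understates changes at such low levels.

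Atf4 itself measured 41.1, 61.7, 62.0, 63.2 and 76.2 FPKM in Control and 45.2, 74.2, 80.3, 80.7 and 90.0 FPKM in AOM/DSS, a log2 difference of 0.27 ± 0.20 (adjusted p = 0.378). Atf4 is controlled largely through its translation, which these libraries do not measure. Ddit3 (Chop, a factor that promotes cell death under lasting stress) measured 4.93, 5.85, 7.59, 7.97 and 12.2 FPKM in Control and 5.85, 6.97, 7.12, 7.79 and 9.35 FPKM in AOM/DSS, a log2 difference of -0.01 ± 0.21 (adjusted p = 0.984). Trib3, a pseudokinase induced by Chop and Atf4, measured 0.246 to 0.891 FPKM in Control and 0.603 to 1.27 FPKM in AOM/DSS, a log2 difference of 0.26 ± 0.14 (adjusted p = 0.203). The groups overlapped for all 3.

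A pair of other elements was searched in the same promoter windows on both strands. The amino acid response core TTGCATCA, to which Atf4 and its partners bind, stood in 2 of the 31 genes (6.45%), against 294 of the 32851 promoters (0.895%). They were Chac1, which rose, and Herpud1, which did not pass the test. Both stretches are given because they are the only matches among the 38 genes, with the core in capitals.
Chac1, chr2:119351044-119351061, + strand: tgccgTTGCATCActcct
Herpud1, chr8:94386312-94386329, + strand: gcgggTTGCATCAgcccg
The unfolded protein response element TGACGTGG stood in 0 of the 31 genes, against 222 promoters (0.676%). These shares too describe the list and are not a result of these mice.

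Outside the 38 genes, 5 lists of related genes were counted in AOM/DSS against Control, where 16.4% of all genes were called higher and 7.23% lower. Of the 23 other folding and oxidation genes tested, 6 rose (26.1%) and 0 fell. These included Uggt1, the folding sensor of the lectin cycle (1.51 on the log2 scale, with Control mice from 3.37 to 20.8 FPKM), Fkbp11, a prolyl isomerase of secretory cells (0.99), Ero1l, which oxidises the isomerases (0.55), and Tmx3, a membrane-bound isomerase (0.46). Of 30 other translocation and glycosylation genes, 4 rose (13.3%, below the share of all genes) and 0 fell, namely Srp14 (0.59), Ssr3 (0.42), Srpr (0.36) and Tram1 (0.34). Of 22 other ERAD genes, 4 rose (18.2%, near the share of all genes) and 1 fell: Nploc4 (0.36), Erlec1 (0.34) and Os9 (0.25) were among those that rose, and Svip, an inhibitor of the pathway, fell by 0.34 on the log2 scale. Of 14 other sensors and factors, 5 rose (35.7%) and 0 fell, among them Bcl2l11 (Bim, 1.14), Creb3l2, the relative of Creb3l1 (0.81), Casp12 (0.73) and Mbtps2, the protease that frees Atf6 (0.47).

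Of 32 other genes of the integrated stress response tested, 15 rose (46.9%) and 2 fell. This count was 14 with size factors and 12 without Control mice 17 and 50, settings in which 12% and 12.2% of all genes were called higher. In the same settings the other 4 lists held 3 and 3 genes called higher for folding and oxidation, 0 and 1 for translocation and glycosylation, 0 and 1 for ERAD, and 3 and 2 for sensors and factors, so no rise is read for these 4 lists. Pycr1, of proline synthesis, rose by 2.53 ± 0.24, Slc7a11, the cystine transporter, by 2.01 ± 0.17, Slc7a5, a transporter of large neutral amino acids, by 1.57 ± 0.15, and Phgdh, of serine synthesis, by 1.42 ± 0.23 on the log2 scale. Pycr1 was at 1.298 to 3.72 FPKM in Control and 13.7 to 25.7 FPKM in AOM/DSS. Cth, which makes cysteine from cystathionine, fell by 1.18 on the log2 scale, from 46.8 ± 8.13 to 20.2 ± 4.70 FPKM (SD, n = 5). Atf3, a factor downstream of Atf4, fell by 1.00, from 25.2 ± 7.30 to 11.9 ± 2.47 FPKM.

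Markers of several cell types were also called in AOM/DSS against Control, though none of goblet cells. The summed level of 8 plasma cell markers was 2401 to 5149 FPKM in Control and 7966 to 19934 FPKM in AOM/DSS with no overlap, and 5 of the 8 markers were called higher. The 8 goblet cell markers summed to 3484 to 8160 FPKM in Control and 3993 to 7305 FPKM in AOM/DSS, and 0 of them were called, with 1 higher at an unadjusted p under 0.05. All 7 Paneth cell markers were called higher, 6 of the 8 colonocyte markers and all 7 smooth muscle markers were called lower, and 5 of 6 tested neutrophil and monocyte markers were called higher. No defining plasma or goblet cell marker was at 0 in every mouse of a group. AOM/DSS mouse 44 had the highest Hspa5 level, 376 FPKM, and a plasma cell sum of 7966 FPKM, next to 7984 FPKM in mouse 23. The sum of mouse 44 was lowered by Jchain, listed at 11.5 FPKM there against 874 to 2171 FPKM in the other AOM/DSS mice. AOM/DSS mouse 33 had the highest plasma cell sum, 19934 FPKM, and an Hspa5 level of 238 FPKM. The part of these cells in the rise of the folding genes was not tested.

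**Figure D5:**
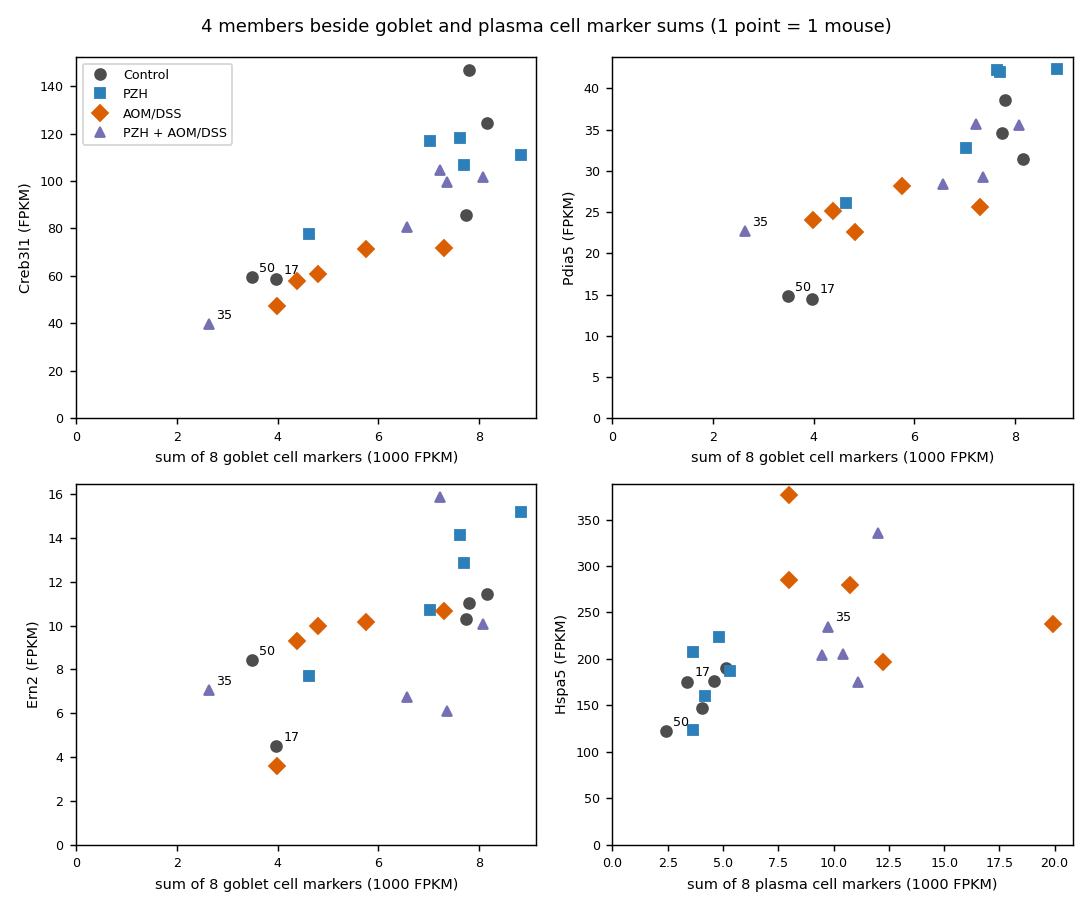
Level of Creb3l1, Pdia5 and Ern2 against the summed level of 8 goblet cell markers, and of Hspa5 against the summed level of 8 plasma cell markers, with levels in FPKM, sums in FPKM scaled as on the axis and 1 point per mouse (20 mice) coloured by group. Control mice 17 and 50 and PZH + AOM/DSS mouse 35 are marked at goblet cell sums of 3972, 3484 and 2630 FPKM. The points share their libraries, and no test was made across them.

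In PZH against Control, none of the 37 genes tested was called by limma, and Chac1 was too low to be tested. The lowest adjusted p was 0.536. At an unadjusted p under 0.05, 3 genes were higher, Dnajc3, Canx and Pdia3, and 0 were lower. Leaving out 1 mouse gave 0 to 11 higher (11 without Control mouse 41, and 0 without Control mouse 50, PZH mouse 27 or PZH mouse 46), and without Control mice 17 and 50 there were 0 higher and 2 lower, Dnajb9 and Derl2, so no direction is read from these genes. Over all 15496 genes tested, 0% were called higher, 0.00645% were called lower and 4.34% were higher at an unadjusted p under 0.05. The median difference of the 37 genes was 0.19 on the log2 scale, against 0.01 over all genes, and without Control mice 17 and 50 it was 0.09. Hspa5 measured 123, 160.5, 187, 208 and 224 FPKM in the PZH mice, a range that takes in 4 of the 5 Control mice. Xbp1 was at 64.7 ± 8.18 FPKM in PZH and 60.7 ± 7.50 FPKM in Control (SD, n = 5), and Asns was at 12.8 ± 3.05 and 10.5 ± 2.18 FPKM. Pdia3, with the lowest unadjusted p of the list, was at 221 to 275 FPKM in PZH and 160.3 to 239 FPKM in Control, a log2 difference of 0.31 ± 0.12.

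In PZH + AOM/DSS against AOM/DSS, the comparison that asks whether PZH changed these genes in the diseased colon, none of the 38 genes was called by limma. The lowest adjusted p was 0.361. At an unadjusted p under 0.05, Edem1 was higher and Ddit3 was lower. Atf6 also passed that level, but its difference is set by the 3 AOM/DSS mice listed near 0 and is not read. Over all 15878 genes, 0.0063% were called higher and 0% lower, and 3.51% were higher and 8.23% lower at an unadjusted p under 0.05. The median difference of the 38 genes was -0.12 on the log2 scale, against -0.04 over all genes. Of the 38 differences 7 were positive (18.4%), against 43.4% over all genes. With size factors 12 were positive and the median was -0.07, and without PZH + AOM/DSS mouse 13 these were 12 and -0.06. No direction is therefore read from this count. Few calls were made for any gene in this comparison, so the missing calls do not show that the levels were alike.

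For the genes described here the PZH + AOM/DSS mice overlapped the AOM/DSS mice. For Hspa5, Pdia4 and Xbp1 they overlapped the Control mice as well, and for Dnajc10 and Asns they did not. Hspa5 measured 175, 205, 205, 235 and 335 FPKM in PZH + AOM/DSS, a log2 difference from AOM/DSS of -0.25 ± 0.20 (adjusted p = 0.642). Pdia4 measured 57.9, 66.2, 67.9, 83.6 and 85.2 FPKM, and its difference from AOM/DSS was -0.30 ± 0.17 (adjusted p = 0.516). Xbp1 measured 70.4, 70.7, 74.0, 80.2 and 81.3 FPKM, mostly below the AOM/DSS mice and above most Control mice, with a difference from AOM/DSS of -0.14 ± 0.08 (adjusted p = 0.507). Dnajc10, at 41.4, 45.9, 53.5, 54.3 and 76.1 FPKM, and Asns, at 14.4, 19.3, 22.95, 23.1 and 34.6 FPKM, had differences from AOM/DSS of -0.01 ± 0.17 and -0.02 ± 0.25 on the log2 scale (adjusted p = 0.99 and 0.987). Of the 14 genes called in AOM/DSS against Control, the mean level in PZH + AOM/DSS was between 24.0% (Xbp1) and 132.9% (Chac1) above that of Control. These genes were picked by their values against the same Control mice. In 13 of the 14 the mean of the PZH group was also above that of Control. A lasting rise under PZH is therefore not read from these percentages.

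Ddit3 and Edem1 were the genes with the lowest unadjusted p besides Atf6 in this comparison. Ddit3 measured 3.33, 4.68, 5.63, 5.91 and 6.14 FPKM in PZH + AOM/DSS, against 5.85 to 9.35 FPKM in AOM/DSS, a log2 difference of -0.47 ± 0.17 (adjusted p = 0.364). Edem1 measured 42.3 to 43.4 FPKM in 4 PZH + AOM/DSS mice and 34.97 FPKM in mouse 35, against 31.8 to 36.7 FPKM in AOM/DSS, a log2 difference of 0.25 ± 0.09 (adjusted p = 0.365). Creb3l1 measured 39.6, 80.7, 99.7, 102 and 105 FPKM, against 47.5 to 71.8 FPKM in AOM/DSS. Mouse 35, which had the lowest goblet cell sum of all 20 mice, was the lowest, and without it Creb3l1 was called higher by 0.64 on the log2 scale (adjusted p = 0.0325). Mouse 35 also stood apart from the rest of its group in other marker sums. Its Paneth cell sum was 4114 FPKM against 148 to 1926 FPKM. Its neutrophil and monocyte sum was 788 against 311 to 445 FPKM, and its colonocyte sum 900 against 2157 to 2961 FPKM. The part of each in the Creb3l1 level was not tested. Without this mouse the calls over all genes grew to 119 higher and 689 lower.

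PZH + AOM/DSS against PZH repeats the AOM/DSS comparison in mice given PZH and shares no mouse with AOM/DSS against Control. Atf4 was the only gene of the 38 called. It measured 33.5, 39.2, 52.4, 56.1 and 62.3 FPKM in PZH and 74.5, 76.5, 87.6, 91.8 and 94.0 FPKM in PZH + AOM/DSS, with no overlap, and rose by 0.82 ± 0.17 on the log2 scale (adjusted p = 0.038). Over all 15626 genes, 1.73% were called higher and 0.678% lower. This call was lost with size factors, with no filter on low values and with the highest transcript of each gene, and when any of 8 mice was left out (PZH mice 14, 27, 46 and 53 and PZH + AOM/DSS mice 2, 13, 15 and 35), with a range of adjusted p from 0.0174 to 0.0926 over all alternatives. At an unadjusted p under 0.05, 6 genes were higher (Dnajb9, Dnajc10, Derl3, Atf4, Asns and Chac1) and 1 was lower (Ddit3), against 13% and 7.9% of all genes. The median difference of the 38 genes was 0.13 on the log2 scale, against 0.04 over all genes.

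Of the 38 genes, 29 (76.3%) had the same direction in both AOM/DSS comparisons, against 71.7% of all genes tested in both. The 14 genes called in AOM/DSS against Control were picked by their values there. All 14 had a positive difference in the mice given PZH, where 94.5% of all genes called higher did, and their median difference there was 0.19 on the log2 scale, against 0.54 in the mice without PZH. Over all genes called higher there, the median went likewise from 0.70 to 0.38. Asns differed by 0.76 ± 0.22 (adjusted p = 0.0944), Chac1 by 0.54 ± 0.16 (adjusted p = 0.0969) and Dnajc10 by 0.45 ± 0.16 (adjusted p = 0.141) on the log2 scale between PZH + AOM/DSS and PZH. Pdia6, by contrast, differed by 0.02 ± 0.15 (adjusted p = 0.946) and Pdia3 by 0.09 ± 0.12 (adjusted p = 0.714). Of the 8 plasma cell markers 3 were called higher in this comparison, and their sum was 3651 to 5320 FPKM in PZH and 9466 to 11989 FPKM in PZH + AOM/DSS. Among the other integrated stress response genes 3 rose, Atf3 by 1.31, Wars, which charges tryptophan transfer RNA, by 0.92 and Cebpb, a partner of Atf4, by 0.87 on the log2 scale.

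Whether the AOM/DSS difference itself depended on PZH was tested as the interaction over all 20 mice, and none of the 38 genes was called by limma. Over all 16926 genes, 0.00591% were called higher and 0.00591% lower. At an unadjusted p under 0.05, 0 of the 38 genes were higher and 4 were lower, Hyou1, Pdia3, Pdia6 and Ern1, against 6.92% of all genes lower. Leaving out 1 mouse gave 0 to 12 lower, 0 without AOM/DSS mouse 44 and 12 without Control mouse 41. The median interaction of the 38 genes was -0.30 on the log2 scale, against -0.05 over all genes. Without Control mice 17 and 50 none of the 38 genes was called, the median was -0.18 and Ddit3 was the only one of the 38 lower at an unadjusted p under 0.05. The difference between the called AOM/DSS rise of Hspa5 without PZH and its difference of 0.35 ± 0.20 with PZH was -0.39 ± 0.28 (adjusted p = 0.646), and for Atf4 the interaction was 0.55 ± 0.27 (adjusted p = 0.501). One gene of the other lists passed this test, Atf3, with an interaction of 2.3 ± 0.35 (adjusted p = 0.0458). This call was lost in 20 of 25 alternatives, among them without Control mice 17 and 50 (2.26, adjusted p = 0.0547), with adjusted p from 0.00183 to 0.126 and a positive interaction in every one. Atf3 was at 17.8 to 36.99 FPKM in Control and 7.01 to 18.1 FPKM in PZH, and at 9.77 to 15.4 FPKM in AOM/DSS and 22.2 to 40.2 FPKM in PZH + AOM/DSS.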

How the data were processed

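RNA from the colon of 20 mice was sequenced with 1 library per mouse. Per the labels and the study's methods, reads were aligned to mm10 with HISAT2, and the authors deposited FPKM per transcript from StringTie, with no counts. The labels' processing notes also name limma. The 96182 Ensembl transcripts of each file were matched to GENCODE M21 (95984 found, 198 not) and summed into 32945 genes. The 22252 assembled transcripts, with 12.1% to 14.85% of the FPKM, carry no gene name and were left out, so a fragment assigned to one of them is missing from its gene. The labels describe rRNA depletion and the methods also poly(A) selection. No pair of mice had identical values (0 of 190).

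Depth was estimated from steps in FPKM multiplied by length (15.3 to 19.4 M fragments), but 40.77% to 47.73% of low values were whole within 0.01, so counts were not recovered and no count test was run. Gene values were compared as log2(FPKM + 1) with limma 3.58.1 in R 4.3.3 (intensity trend, no covariates), on genes that reached 0.5 FPKM in 5 or more of the 10 mice compared (of 20 for the interaction). P-values were adjusted by Benjamini-Hochberg over all genes tested, and a gene was called at an adjusted p under 0.05. The files do not say whether mice shared a cage or a batch. The method was tested on simulated data. The 38 genes, the other lists and the motifs were chosen with earlier results of these data known. Values are given per mouse for genes called without overlap, for sensors and factors and for Atf4 and its targets, and at most 4 genes of each other list are named, those with the largest called difference. Cth and Atf3 in AOM/DSS against Control, and single mice, were named after their values were seen. A second gene identifier for Ddit3, at 0.122 to 0.155 FPKM, was left out. Tables were handled with Python 3.11.15, pandas 2.3.3 and numpy 2.4.6, and figures drawn with matplotlib 3.10.9.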

Additional observations from a re-analysis of the deposited data

Results flagged for a closer look

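In each group of 5 mice, the highest or lowest mouse was set against the rest of its group with Dixon's ratio (critical value 0.71). Of 152 groups, 12 held such a mouse, where chance at 1 in 20 would give 7.6. AOM/DSS mouse 44 was high in Hyou1 (26.99 FPKM against 9.60 to 14.1 FPKM in the other 4 mice) and Creld2 (57.1 against 30.7 to 36.5 FPKM), and low in Ern2 (3.60 against 9.28 to 10.7 FPKM). PZH mouse 8 was low in Dnajb11 (39.6 against 54.6 to 59.1 FPKM), Pdia6 (76.5 against 108 to 118 FPKM) and Creb3l1 (77.8 against 107 to 118 FPKM), and it had the lowest goblet cell sum of its group, 4630.4 FPKM. PZH mouse 53 was high in Manf (79.8 against 49.2 to 56.3 FPKM) and is listed at 0.018 FPKM for Atf6 (against 9.30 to 12.1 FPKM).

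Single mice also stood apart for Herpud1 in Control mouse 17 (42.4 against 16.9 to 20.1 FPKM), Edem1 in PZH + AOM/DSS mouse 35 (34.97 against 42.3 to 43.4 FPKM), Sec61b in PZH mouse 46 (213 against 151 to 168 FPKM) and Eif2ak3 in PZH mouse 14 (1.79 against 10.9 to 12.4 FPKM). With all mice of each comparison and no other setting, Pdia6 was the only one of these genes called. Creb3l1 was called without Control mice 17 and 50 or without PZH + AOM/DSS mouse 35, and Dnajb11 and Manf were called in some alternatives. What sets these mice apart was not tested.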

How the results depend on the processing

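For AOM/DSS against Control, 14 of the 38 genes were called, and leaving out 1 mouse gave 10 to 17 calls (10 without AOM/DSS mouse 44). All 20 mice in one model gave 18 calls, which added Derl3, Dnajb11, Sdf2l1 and Sel1l, and the highest transcript of each gene gave 14 calls, with Derl2 among them. Size factors gave 7 calls, and leaving out Control mice 17 and 50 together gave 6, with 4 higher and 2 lower. Without those 2 mice, 12.2% of all genes were called higher and 5.58% lower. PZH + AOM/DSS against AOM/DSS gave 0 to 1 calls when 1 mouse was left out. For PZH + AOM/DSS against PZH, 1 gene was called, against 0 with size factors, 0 with no filter, 0 with the highest transcript of each gene, 2 with all 20 mice in one model (Asns and Atf4) and 0 to 1 without 1 mouse. The cause was not tested. No paired analysis was possible because the groups share no mouse numbers.

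All 15 called values kept their direction in every alternative run. Of 618 values recomputed for 39 results of single genes, 541 kept their direction and side of the threshold, 43 lost and 12 gained a call, and 22 changed sign, in 6 genes not called in AOM/DSS against Control. On the log2 scale, size factors gave -0.10 for Pdia5 and -0.069 for Sec61b, the highest transcript of each gene gave 0.52 for Derl2 and 0.032 for Ddit3, and leaving out Control mice 17 and 50 gave -0.46 for Pdia5, -0.051 for Sec61b and 0.24 for Ddit3. Leaving out 1 mouse gave -0.16 to 0.17 for Pdia5, -0.31 to 0.0058 for Herpud1, -0.17 to 0.048 for Derl2, -0.059 to 0.16 for Sec61b, -0.28 to 0.18 for Ern2 and -0.13 to 0.16 for Ddit3.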
